A study of Mus musculus with 18 samples.

Results

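The G1 control genes described here are the 3 D cyclin genes *Ccnd1*, *Ccnd2* and *Ccnd3*, the retinoblastoma gene *Rb1*, and the CDK inhibitor genes *Cdkn1a*, *Cdkn1b*, *Cdkn2a*, *Cdkn2b*, *Cdkn2c* and *Cdkn2d*. They were chosen by gene symbol, as genes that act upstream of the cell cycle programme, and they make up 10 of the 51912 genes counted. All 10 passed the minimum of 10 read pairs over the 18 libraries that left 24495 genes to test. The study asked how ethanol changes the RNA of cultured cortical astrocytes and the part of that RNA which is bound to ribosomes. It used translating ribosome affinity purification (TRAP), in which the ribosomal protein Rpl10a carries an EGFP tag and antibodies to EGFP pull down tagged ribosomes with their RNA (IP). The input is RNA from the same cell lysate before the pull-down.

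All groups came from primary cortical cultures of mice on a mixed B6;FVB background, and each group, controls included, carried the transgene Tg(Aldh1l1-EGFP/Rpl10a)JD130Htz. Cortices of male and female pups at postnatal day 0 were used in equal number. The *Aldh1l1* promoter drives the tag in astrocytes, so IP holds RNA of tagged cells, while input holds RNA of every cell type in the dish. The cells grew for 14 d to confluence in serum and for 6 d after replating, and were then kept for 24 h without serum. Control dishes received fresh serum-free medium for a further 24 h, and ethanol dishes received the same medium with 50 mM ethanol. Dishes stood in sealed chambers beside an open dish of 50 mM ethanol or of water, so chamber and treatment cannot be told apart. There were 6 control and 6 ethanol dishes with an IP library each, and 3 of the dishes of each treatment, replicates 4 to 6, also gave an input library. Nothing in the labels says that the dishes came from separate cultures or litters, so p-values measure the spread between dishes, which may be technical.

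Each library held between 74239854 and 132810705 read pairs on genes. Astrocyte markers were present in every library, and the summed level of 9 markers was 1103 to 1183 CPM (counts scaled to library size) in input and 1733 to 1929 CPM in IP. The sum of 10 microglial markers was 89.7 to 105 CPM in input and 15.2 to 19.7 CPM in IP. Neither sum overlapped between IP and input. Between dishes, fewer cells of a type and less RNA per cell cannot be told apart in bulk RNA of this kind.

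D cyclins are made in G1 in response to mitogens and activate the kinases CDK4 and CDK6, which phosphorylate the retinoblastoma protein so that E2F transcription factors can turn on the genes of S phase. The INK4 inhibitors p16Ink4a (*Cdkn2a*), p15Ink4b (*Cdkn2b*), p18Ink4c (*Cdkn2c*) and p19Ink4d (*Cdkn2d*) bind CDK4 and CDK6 and keep D cyclins off them, whereas p21 (*Cdkn1a*) and p27 (*Cdkn1b*) of the CIP/KIP family bind cyclin-CDK complexes and block above all those with CDK2. *Cdkn2a* also encodes p19Arf, read in another frame from an upstream first exon, which stabilises p53 by holding Mdm2.

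The members lie on 6 chromosomes of GRCm38. *Ccnd1* (ENSMUSG00000070348) spans chr7:144929931-144939925, *Ccnd2* (ENSMUSG00000000184) chr6:127125162-127152193 and *Ccnd3* (ENSMUSG00000034165) chr17:47505051-47599691. *Cdkn1a* (ENSMUSG00000023067) is at chr17:29090976-29100727, *Cdkn1b* (ENSMUSG00000003031) at chr6:134920401-134925513 and *Rb1* (ENSMUSG00000022105) at chr14:73183673-73325822. The INK4 genes are *Cdkn2a* (ENSMUSG00000044303) at chr4:89274471-89294653, *Cdkn2b* (ENSMUSG00000073802) at chr4:89306299-89311039, *Cdkn2c* (ENSMUSG00000028551) at chr4:109660876-109667189 and *Cdkn2d* (ENSMUSG00000096472) at chr9:21288410-21291407. *Cdkn2a* and *Cdkn2b* are neighbours on the minus strand with 11645 bases between the annotated genes, and their counts moved in opposite directions with ethanol.

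Because these neighbours moved apart, the 250 bases before each of their start sites are shown, from RefSeq on GRCm38.p6, all on the minus strand and written 5′ to 3′. They come from chr4:89311033-89311282 for *Cdkn2b*, chr4:89294620-89294869 for the distal *Cdkn2a* start, which gives p19Arf, and chr4:89282193-89282442 for the proximal start, which gives p16Ink4a. Capitals mark E2F letters (TTTCGCGC, TTTGGCGC or TTTCCCGC), the GC box GGGCGG and the cyclic AMP response element TGACGTCA, searched on both strands.
Cdkn2b: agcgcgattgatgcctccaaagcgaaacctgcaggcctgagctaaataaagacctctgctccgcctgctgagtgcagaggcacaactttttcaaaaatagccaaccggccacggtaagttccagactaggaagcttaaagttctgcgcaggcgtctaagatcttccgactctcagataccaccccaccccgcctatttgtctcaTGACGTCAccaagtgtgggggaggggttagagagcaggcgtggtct
Cdkn2a, distal start: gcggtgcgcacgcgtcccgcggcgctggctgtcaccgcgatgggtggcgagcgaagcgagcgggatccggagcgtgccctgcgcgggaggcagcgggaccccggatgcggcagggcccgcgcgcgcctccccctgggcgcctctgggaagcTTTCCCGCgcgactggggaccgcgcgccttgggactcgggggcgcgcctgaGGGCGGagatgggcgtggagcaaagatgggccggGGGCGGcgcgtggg
Cdkn2a, proximal start: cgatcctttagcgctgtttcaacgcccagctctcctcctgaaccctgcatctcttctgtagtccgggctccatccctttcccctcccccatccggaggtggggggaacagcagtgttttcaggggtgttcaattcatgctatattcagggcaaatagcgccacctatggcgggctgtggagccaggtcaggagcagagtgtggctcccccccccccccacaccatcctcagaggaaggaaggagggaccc
The *Cdkn2b* stretch held 1 cyclic AMP response element, at −46 from the start, and neither of the other motifs. The distal *Cdkn2a* stretch held 1 set of E2F letters at −99 and GC boxes at −48 and −14, and the proximal stretch held none of the motifs. Of 32851 stretches of 250 bases before annotated starts, 1.53% held E2F letters, 32.7% a GC box and 1.55% a cyclic AMP response element. The *Cdkn2b* start lies 16413 bases from the distal and 28840 bases from the proximal *Cdkn2a* start. Counts per gene do not separate the p16Ink4a and p19Arf transcripts, so the *Cdkn2a* values below are their sum. RefSeq starts were matched for 7 members, with 11 stretches. No start was matched for *Ccnd1*, *Ccnd2* or *Rb1*, so their promoters were not searched. Among the 11 stretches, E2F letters were found in the distal *Cdkn2a* stretch only, and the response element in that of *Cdkn2b* only.

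Levels per kilobase of exon (RPKM, from the counts of the gene's own strand) placed *Ccnd1* far above the other members in every group. In input control dishes *Ccnd1* was at 880.3 ± 9.42 RPKM (SD, n = 3), followed by *Cdkn1a* at 303 ± 2.84 and *Ccnd2* at 279.9 ± 2.36. *Cdkn2a* at 141 ± 2.51 and *Cdkn2b* at 105 ± 4.50 RPKM came next, so 5 of the 10 genes were above 100 RPKM. The other members were much lower, from *Ccnd3* at 22.7 ± 0.201 through *Cdkn1b* at 17.1 ± 0.367, *Rb1* at 12.3 ± 0.361 and *Cdkn2d* at 10.3 ± 0.145 to *Cdkn2c* at 7.76 ± 0.478. No neighbours in this order overlapped between libraries of the group. In IP control dishes the order changed in 1 place, with *Ccnd2* at 481 ± 11.3 RPKM (SD, n = 6) above *Cdkn1a* at 328 ± 8.39. The leading INK4 genes were closest in IP ethanol dishes, with *Cdkn2b* at 156.1 ± 4.51 and *Cdkn2a* at 149.8 ± 6.06 RPKM, and only there did 2 neighbours overlap. With the longest transcript as the length instead of all annotated exons, *Cdkn2a* stayed above *Cdkn2b* in that group, at 196 against 156.1 RPKM.

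D cyclin RNA was mostly *Ccnd1*. It made up 74.4 ± 0.0945% (SD, n = 3) of the summed D cyclin RPKM in input control dishes and 70.4 ± 0.416% (SD, n = 6) in IP control dishes. *Ccnd2* made up 23.7 ± 0.0928% and 28.2 ± 0.449% and *Ccnd3* the remaining 1.92 ± 0.0282% and 1.36 ± 0.0673%. Between the CIP/KIP genes, *Cdkn1a* held 94.6 ± 0.126% in input control and 94.9 ± 0.202% in IP control dishes. Among the INK4 genes, *Cdkn2a* and *Cdkn2b* held 53.3 ± 0.944% and 39.8 ± 0.971% in input control dishes, and *Cdkn2c* and *Cdkn2d* shared the rest. All these shares depend on the length used. With the longest transcript, input control means were 1108 RPKM for *Ccnd1*, 416 for *Ccnd2* and 51.6 for *Ccnd3*, which gives *Ccnd3* a larger share.

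The strand used for counting mattered for 4 members. The deposited table counts pairs without regard to strand and sets aside pairs where exons of different genes overlap. For *Ccnd1* this removed 40.6% to 44.4% of the pairs on its own strand in the 18 libraries. Its exons share 1100 bases, or 23.4% of their length, with *LTO1* on the opposite strand. For *Ccnd3* the loss was 20.5% to 22.8%, beside 361 exon bases shared with *Bysl*. *Ccnd2* lost 12.02% to 15.4%, beside the antisense genes *Gm43126* and *9330179D12Rik*, and *Rb1* lost 9.65% to 11.9%, beside *Rcbtb2* and *Lpar6*. The other 6 members changed by at most 1% in any library. Tests below use the deposited counts, and the values on the gene strand are given where these 4 genes are compared.

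**Figure D1:**
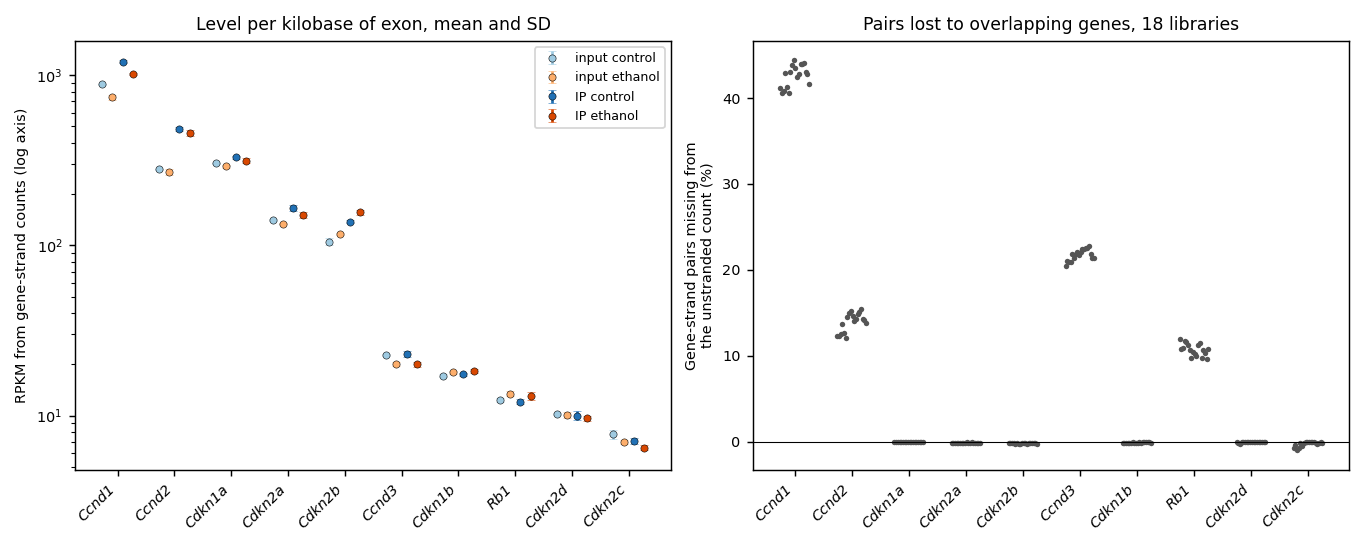
Left, the level of each member per kilobase of exon (RPKM from gene-strand counts, log axis) in the 4 groups, with points for means and bars for SD (n = 3 in input, n = 6 in IP). Right, the percentage of gene-strand pairs missing from the unstranded count in each of the 18 libraries. *Ccnd1* stands highest on both panels, and *Ccnd2* shows the widest gap between IP and input on the left.

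Ethanol lowered *Ccnd1* and *Ccnd3* in both fractions, while the calls for *Ccnd2* were weak. *Ccnd1* changed by −15.1% in IP and −17.0% in input, *Ccnd3* by −12.9% and −12.4%, and *Ccnd2* by −4.83% and −4.26%. Of the inhibitors, *Cdkn2b* rose by 13.7% in IP and 10.6% in input, while *Cdkn2a* (−8.93% and −4.90%) and *Cdkn2c* (−8.12% and −10.6%) fell. *Rb1* rose by 8.75% in IP and 8.67% in input. *Cdkn1a*, the inhibitor gene with the highest RPKM, and *Cdkn2d* did not pass the test in either fraction.

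In IP, edgeR's quasi-likelihood test with Benjamini-Hochberg adjustment over all genes tested called 8 of the 10 members at an adjusted p of 0.05, where 21.4% of all genes tested were called. *Cdkn1b*, *Cdkn2b* and *Rb1* were the 3 called higher, against 11.9% of all genes, and *Ccnd1*, *Ccnd2*, *Ccnd3*, *Cdkn2a* and *Cdkn2c* the 5 called lower, against 9.48%. The libraries of the treatments did not overlap for 3 members, *Cdkn2b* (higher) and *Ccnd1* and *Ccnd3* (lower), against 9.96% of all genes, of which 5.09% were higher and 4.87% lower. In input 7 members were called, against 15.0% of all genes. These were *Cdkn2b* and *Rb1* in the higher direction, against 7.21%, and the same 5 genes in the lower direction, against 7.78%. Input libraries did not overlap for 8 members, all but *Ccnd2* and *Cdkn2d*. This count is read against 27.1% of all genes, 14.0% higher and 13.1% lower, since 3 libraries a group separate easily. The shares of all genes include genes with as few as 10 read pairs over the 18 libraries. Every member had at least 1117 in each library, and shares among genes of like level were not computed. The changes were small, as were those of other called genes, whose median size was 0.15 in each fraction on the log2 scale.

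The drop in *Ccnd1*, the D cyclin gene with the highest RPKM in every group, was the clearest. In input its level was 2539, 2528 and 2577 CPM in control replicates 4 to 6, and 1999.9, 2184 and 2175 CPM in the matching ethanol replicates. In IP the control dishes ranged from 3285 to 3387 CPM with a median of 3322, and the ethanol dishes from 2744 to 2892 CPM with a median of 2800.2. Every ethanol library was below every control library of its fraction. On the log2 scale the change was −0.24 ± 0.0211 (SE, adjusted p = 1.22e-13, edgeR) in IP and −0.27 ± 0.0210 (adjusted p = 3.24e-34, edgeR) in input. On the gene strand, where the pairs shared with *LTO1* are kept, it was −0.25 in each fraction. No library left out in turn ended either call, and the log2 fold change then lay between −0.25 and −0.23 in IP and between −0.29 and −0.23 in input.

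*Ccnd3* fell almost as far from a level far below that of *Ccnd1*. Input control libraries gave 162.7, 164.2 and 164.6 CPM, and input ethanol libraries 145.01, 147.3 and 139.3 CPM. In IP the controls ranged from 155.7 to 173.3 CPM (median 165.4) and the ethanol dishes from 137.4 to 147.7 CPM (median 143.1). The groups did not overlap in either fraction. Its log2 fold change was −0.20 ± 0.0256 (SE, adjusted p = 9.17e-09, edgeR) in IP and −0.19 ± 0.0238 (adjusted p = 1.26e-13, edgeR) in input, and −0.21 and −0.18 on the gene strand.

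*Ccnd2*, the D cyclin with the least change, gave 2414, 2378 and 2404 CPM in input control and 2186, 2387 and 2335 CPM in input ethanol libraries. In IP the controls ranged from 3873 to 4145 CPM (median 4009) and the ethanol dishes from 3677 to 4113 CPM (median 3759). The treatments overlapped in both fractions. Its log2 fold change was −0.07 ± 0.0232 (SE, adjusted p = 0.0185, edgeR) in IP and −0.06 ± 0.0210 (adjusted p = 0.0228, edgeR) in input. On the gene strand it was −0.08 (adjusted p = 0.0088, edgeR) in IP and −0.06 (adjusted p = 0.0395, edgeR) in input. The calls on the deposited counts were weak. In IP the call was lost without ethanol replicate 4 (adjusted p = 0.0567), and in input without control replicate 4, 5 or 6 or without ethanol replicate 4, with adjusted p up to 0.588. Without input ethanol replicate 4 the input log2 fold change shrank to −0.02. The input call was also lost under DESeq2, under scaling by total counts and with edgeR's filterByExpr in place of the count minimum. The ratio of *Ccnd2* to *Ccnd1* per kilobase rose from 0.318 ± 0.00164 (SD, n = 3) to 0.364 ± 0.00337 in input and from 0.401 ± 0.00873 (SD, n = 6) to 0.450 ± 0.0152 in IP, with no overlap in either fraction. This ratio is given as a description without a test.

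*Cdkn2b*, whose product p15Ink4b is best known as a mediator of growth arrest by TGF-beta, was the inhibitor that rose most. Input control libraries gave 144.8, 154.9 and 157.2 CPM and input ethanol libraries 168.04, 168.8 and 169.9 CPM. In IP the controls ranged from 191 to 206 CPM (median 201) and the ethanol dishes from 214 to 233 CPM (median 228). Every ethanol library was above every control library of its fraction. The change amounted to 0.19 ± 0.0241 (SE, adjusted p = 1.25e-08, edgeR) in IP and 0.15 ± 0.0235 (adjusted p = 3.94e-08, edgeR) in input, on the log2 scale.

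*Cdkn2a*, which lies next to it, went the other way. Input control libraries gave 170.3, 175.4 and 170.0 CPM and input ethanol libraries 162.4, 165.6 and 163.9 CPM. In IP the controls ranged from 189 to 210.2 CPM (median 202) and the ethanol dishes from 174 to 195 CPM (median 182). The groups overlapped in IP and not in input. The fitted log2 fold change was −0.14 ± 0.0263 (SE, adjusted p = 6.77e-05, edgeR) in IP and −0.07 ± 0.0234 (adjusted p = 0.0168, edgeR) in input. The input call was lost without control replicate 5 or ethanol replicate 4, with an adjusted p of up to 0.176. The ratio of *Cdkn2b* to *Cdkn2a* per kilobase went from 0.747 ± 0.0315 (SD, n = 3) to 0.868 ± 0.00803 in input and from 0.836 ± 0.0257 (SD, n = 6) to 1.04 ± 0.0293 in IP. The lowest ethanol ratio was above the highest control ratio in each fraction, at 0.859 against 0.780 in input and 0.992 against 0.883 in IP. The level of this ratio depends on the length used. With the longest transcript, *Cdkn2b* stayed below *Cdkn2a* in IP ethanol dishes, at 156.1 against 196 RPKM.

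*Cdkn2c* and *Cdkn2d* were the least expressed members, with 1117 to 2338 read pairs in each library. *Cdkn2c* gave 20.6, 23.2 and 21.7 CPM in input control and 19.8, 19.0 and 20.0 CPM in input ethanol libraries. In IP it ranged from 18.1 to 20.3 CPM (median 20.0) in control and from 17.2 to 18.8 CPM (median 18.2) in ethanol dishes, and the ranges overlapped through control replicate 1. It fell by 0.12 ± 0.0381 (SE, adjusted p = 0.0137, edgeR) on the log2 scale in IP and by 0.16 ± 0.0483 (adjusted p = 0.00871, edgeR) in input. The input call was lost without control replicate 5 or ethanol replicate 5, with an adjusted p of up to 0.198. *Cdkn2d* lay between 14.7 and 17.5 CPM in all 18 libraries, and its 95% confidence interval ran from −0.13 to 0.04 in IP and from −0.14 to 0.07 in input on the log2 scale.

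The CIP/KIP genes moved little. *Cdkn1a*, which encodes p21 and is a target of p53, gave 1124, 1126 and 1108 CPM in input control and 1057, 1099 and 1083 CPM in input ethanol libraries. In IP it ranged from 1175 to 1262 CPM (median 1207) in control and from 1114 to 1229 CPM (median 1164) in ethanol dishes. The log2 fold change was −0.05 ± 0.0234 (SE, adjusted p = 0.0965, edgeR) in IP and −0.06 ± 0.0217 (adjusted p = 0.0611, edgeR) in input, so *Cdkn1a* was not called although its point estimate was below 0 in both fractions. It passed the threshold without IP control replicate 6 or IP ethanol replicate 3, where the adjusted p fell as low as 0.00703, and without input ethanol replicate 5, at 0.0404. The DESeq2 Wald test called it lower in both fractions.

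*Cdkn1b*, which encodes p27, gave 79.2, 82.5 and 81.8 CPM in input control and 85.1, 83.5 and 86.8 CPM in input ethanol libraries. In IP it ranged from 81.2 to 85.3 CPM (median 82.2) in control and from 82.6 to 89.4 CPM (median 86.5) in ethanol dishes, with overlap. The log2 fold change was 0.07 ± 0.0257 (SE, adjusted p = 0.0307, edgeR) in IP and 0.06 ± 0.0275 (adjusted p = 0.0997, edgeR) in input. The call in IP was lost on leaving out any 1 of 8 libraries, namely control replicates 1, 2, 3, 4 and 6 and ethanol replicates 2, 3 and 4, with an adjusted p of up to 0.122. In IP replicates 4 to 6 alone the log2 fold change was 0.03 (adjusted p = 0.714, edgeR) and in replicates 1 to 3 alone 0.11 (adjusted p = 0.0398, edgeR).

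*Rb1* gave 67.0, 67.2 and 71.0 CPM in input control and 73.9, 77.1 and 72.6 CPM in input ethanol libraries. In IP it ranged from 65.3 to 72.3 CPM (median 67.0) in control and from 67.9 to 79.7 CPM (median 72.0) in ethanol dishes. The groups overlapped in IP, where control replicate 5 was high, and not in input. The log2 fold change was 0.12 ± 0.0315 (SE, adjusted p = 0.00346, edgeR) in IP and 0.12 ± 0.0288 (adjusted p = 0.000528, edgeR) in input. On the gene strand it was 0.11 and 0.12, and no single library ended either call.

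**Figure D2:**
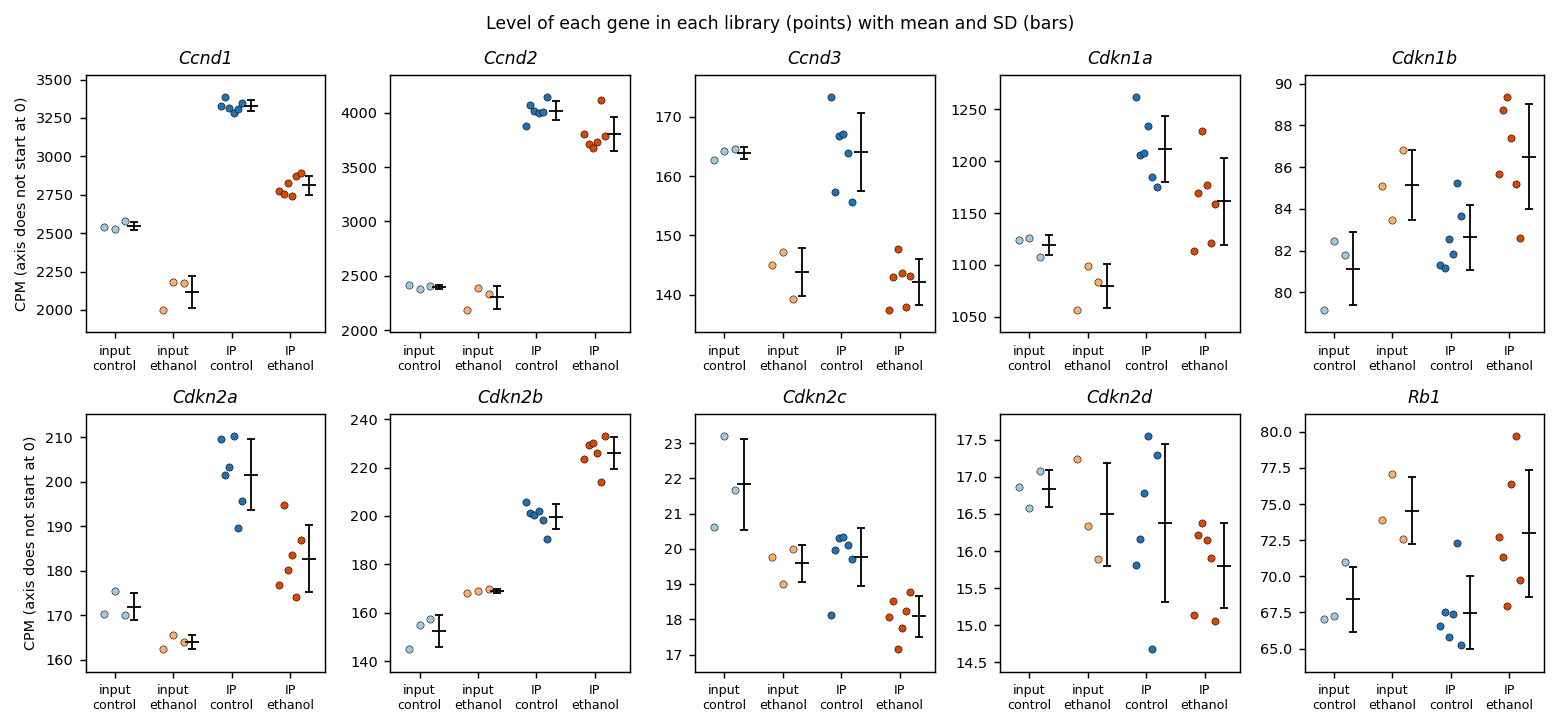
Level of each member in CPM (axes not starting at 0) in each of the 18 libraries, as points by group, with the mean and SD as bars (n = 3 in input, n = 6 in IP). *Ccnd1* and *Ccnd3* lie lower and *Cdkn2b* lies higher in all ethanol libraries of each fraction, and *Ccnd1*, *Ccnd2* and *Cdkn2b* lie higher in IP than in input.

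Cell type markers also moved with ethanol, in both directions. The summed level of 8 endothelial and mural markers was 1299 to 1369.9 CPM in input control and 896 to 965 CPM in input ethanol libraries, and 1631 to 1764 against 1052 to 1249.9 CPM in IP. This sum is carried by *Acta2*, with a mean of 1186 CPM in input control and 789.6 CPM in input ethanol, and 1589 and 1069 CPM in IP. Of the 7 of these markers that were tested, 3 (*Acta2*, *Tagln* and *Kdr*) fell and none rose in each fraction, *Pdgfrb* was not called (log2 fold change −0.02 in each), and *Cldn5* was at 0 in all 18 libraries. The sum of 9 astrocyte markers was 1103 to 1149.6 CPM in input control and 1155 to 1183 CPM in input ethanol libraries, and 1733 to 1811 against 1857 to 1929 CPM in IP. In IP 4 of them (*Aqp4*, *Slc1a3*, *Slc1a2* and *Sox9*) rose and none fell, and in input the same 4 rose while *Aldh1l1* (−0.13), *Gfap* (−0.07) and *Aldoc* (−0.10) fell. The sum of 8 neuronal markers was 111 to 115 CPM in input control and 103 to 108 CPM in input ethanol, and 137 to 144.6 against 124 to 132 CPM in IP, with *Stmn2* called lower in both. *Slc17a7*, at a mean of 0.26 CPM in input control and 0.51 CPM in input ethanol, was called higher in input (0.98) and not in IP. Of 8 oligodendrocyte lineage markers, *Pdgfra* and *Cspg4* rose and *Olig1* fell in both fractions, and *Mbp* rose in input. In each fraction, 1 of 10 microglial markers (*Csf1r*) and 1 of 7 fibroblast markers (*Pdgfra*, which both lists hold) rose and none fell. The part of these shifts in the members' changes was not tested.

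No difference in the ethanol effect between the fractions passed the test for any member. The interaction of fraction and treatment called none of the 10 members, and 0% of all genes tested by edgeR, with 1459 genes at an unadjusted p under 0.05 and 2 called by DESeq2. The lowest p among the members was that of *Cdkn2a*, whose log2 fold change in IP minus that in input was −0.07 (95% confidence interval −0.16 to 0.01, adjusted p = 0.849, edgeR). For *Ccnd1* the interval of the difference was −0.05 to 0.09, for *Ccnd3* −0.10 to 0.06 and for *Cdkn2b* −0.05 to 0.11. When IP and input of each dish were paired by a replicate block (12 libraries), *Ccnd1* had the lowest p instead, at 0.06 (95% confidence interval 0.01 to 0.12, adjusted p = 0.533, edgeR), so that its interval left 0 while the call did not change. The same fit gave *Cdkn2a* −0.04 (interval −0.11 to 0.03), and on gene-strand counts it gave *Ccnd1* 0.03 (interval −0.02 to 0.09). In the fit without the block the widest interval was that of *Cdkn2d*, from −0.16 to 0.12. Differences within these bounds cannot be seen with 3 input dishes a treatment. *Cdkn1b* was thus called in IP and not in input without a difference between the fractions having been shown (interval −0.09 to 0.08).

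**Figure D3:**
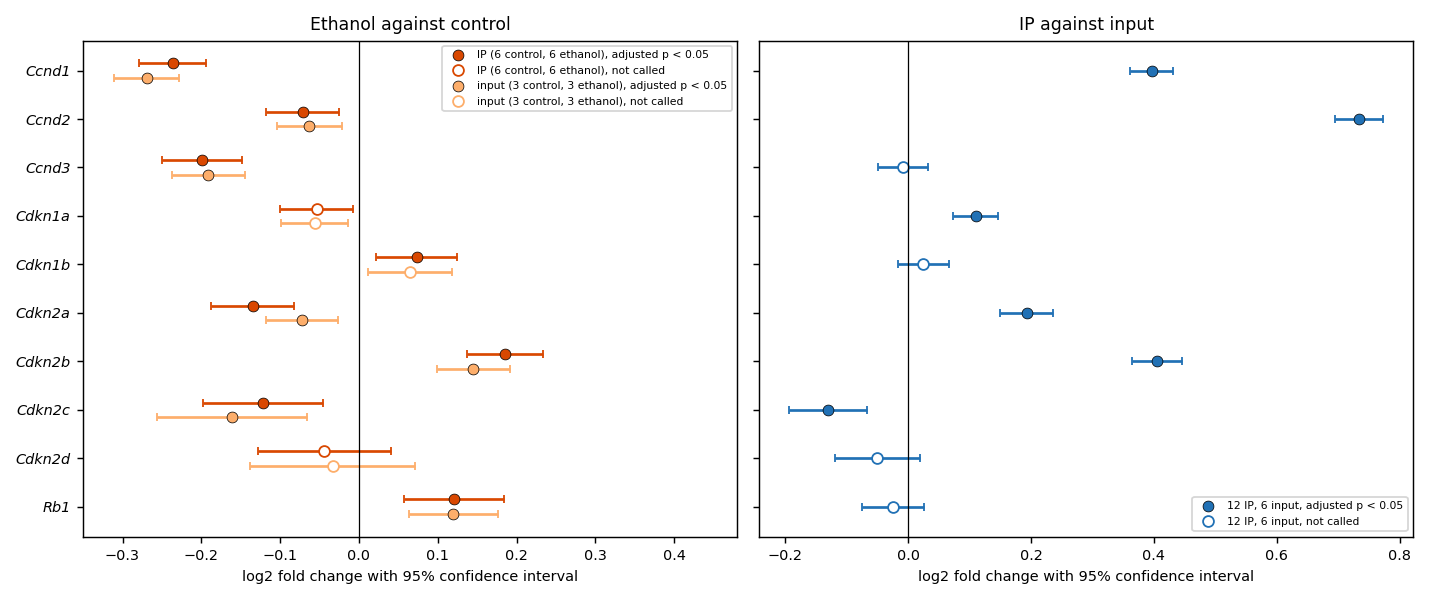
Fitted log2 fold change of each member with its 95% confidence interval, for ethanol against control in IP (6 and 6 libraries) and input (3 and 3 libraries) on the left and for IP (12 libraries) against input (6 libraries) on the right. Filled points have an adjusted p below 0.05. The left panel runs from −0.27 for *Ccnd1* in input to 0.19 for *Cdkn2b* in IP, and the right panel reaches 0.73 for *Ccnd2*.

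Between the fractions, *Ccnd2* stood out among the members. It was 66.3% higher in IP than in input, with 3677 to 4145 CPM in the 12 IP libraries and 2186 to 2414 CPM in the 6 input libraries. *Cdkn2b* was 32.4% and *Ccnd1* 31.6% higher in IP, whereas *Ccnd3* and *Rb1* were close to equal in both fractions. Input holds RNA of untagged cells and RNA off ribosomes, so a higher level in IP can come from the cell type or from ribosome loading, which cannot be told apart here.

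Of the 10 members, 6 were called between the fractions by edgeR's quasi-likelihood test, where 51.0% of all genes tested were called. *Ccnd1*, *Ccnd2*, *Cdkn1a*, *Cdkn2a* and *Cdkn2b* were the 5 called higher in IP, against 25.2% of all genes, and *Cdkn2c* was the 1 called lower, against 25.8%. The 12 IP and 6 input libraries did not overlap for *Ccnd1*, *Ccnd2* and *Cdkn2b*, all higher in IP, against 25% of all genes, of which 13.1% were higher and 11.9% lower. The share of members called was thus near that of all genes.

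For *Ccnd2* the log2 fold change was 0.73 ± 0.0196 (SE, adjusted p = 2.67e-43, edgeR), and 0.77 on the gene strand. *Ccnd1* had 0.40 ± 0.0178 (adjusted p = 2.07e-31, edgeR), and 0.45 on the gene strand, where fewer of its pairs are lost. For *Cdkn2b* it was 0.41 ± 0.0201 (adjusted p = 5.70e-29, edgeR), for *Cdkn2a* 0.19 ± 0.0216 (adjusted p = 5.01e-12, edgeR) and for *Cdkn1a* 0.11 ± 0.0186 (adjusted p = 4.48e-07, edgeR). *Cdkn2c* was at −0.13 ± 0.0318 (adjusted p = 0.000300, edgeR). The intervals of the uncalled members were −0.02 to 0.07 for *Cdkn1b*, −0.12 to 0.02 for *Cdkn2d*, −0.05 to 0.03 for *Ccnd3* and −0.08 to 0.03 for *Rb1*. On the gene strand *Ccnd3* was at 0.01 and *Rb1* at −0.04, again without a call. Scaling by total counts in place of TMM made *Cdkn2d* (−0.10), *Ccnd3* (−0.06) and *Rb1* (−0.08) pass as lower in IP, and moved *Cdkn1b* to −0.03 without a call. The same scaling lowered *Cdkn1a* from 0.11 to 0.06, which was still called.

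Markers moved with the fraction too, again in both directions. Of 10 microglial markers 9 were lower in IP and none higher, with a median log2 fold change of −2.46, and of 9 astrocyte markers 8 were higher and *S100b* lower. Of 7 fibroblast markers 3 were higher and 4 lower, and their sum was 237 to 246 CPM in input and 127.5 to 145.8 CPM in IP. Markers of other types were higher in IP more often than lower. Of 7 endothelial and mural markers 4 were higher (*Acta2* at 0.43, *Kdr*, *Rgs5* and *Tagln*) and *Pdgfrb* and *Cdh5* lower. Of 8 neuronal markers 4 were higher (*Stmn2* at 0.24, *Syt1*, *Tubb3* and *Gad1*) and *Rbfox3* lower. Of 8 oligodendrocyte lineage markers 4 were higher (*Cspg4* at 1.07, *Olig1* at 0.72, *Olig2* and *Pdgfra*) and *Mbp* and *Sox10* were among those lower, and their sum was 161 to 184 CPM in input and 250.1 to 289 CPM in IP. The part of these cells in the members' values was not tested.

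The genes that act with the members are described from 6 lists of 105 genes, all of which were tested, by their counts and medians beside all genes. In IP, 16 of the 105 rose and 41 fell with ethanol, beside 11.9% and 9.48% of all genes. In input 13 rose and 34 fell, beside 7.21% and 7.78%. The median log2 fold change of all 24495 genes was 0.00537 in IP and −0.000918 in input. These lists were set with results of the data known, so their directions are no independent evidence.

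CDK genes and their activators fell more often than they rose. Of 11 genes for CDK4, CDK6, CDK2 and their activators, 9 fell and none rose in IP (median −0.16), and 6 fell and none rose in input (median −0.15). Of the direct partners of D cyclins, *Cdk4* changed by −0.17 in IP and −0.19 in input, and *Cdk6* by −0.11 and −0.08. *Ccna2*, the cyclin A2 gene, changed by −0.42 in IP and −0.53 in input on the log2 scale. The cyclin E genes *Ccne2* and *Ccne1*, which act after the D cyclins, had −0.38 and −0.26 in IP and −0.47 and −0.27 in input. Between the fractions 4 were higher and 5 lower in IP, and *Cdk6*, a direct partner of D cyclins, was the furthest apart at 0.87 ± 0.0230 (SE, adjusted p = 6.66e-45, edgeR). *Cdk7*, *Mnat1* and *Cdc37* were the other 3 higher and *Cdk4*, *Cdk2*, *Ccne2*, *Ccna2* and *Cdc25a* the 5 lower.

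Downstream of Rb1, S phase genes under E2F control also fell. Of 20 such genes, 18 fell in IP (median −0.26) and 17 in input (median −0.30), and none rose. *Cdc6*, which loads the replicative helicase, had the largest change at −0.63 ± 0.0868 (SE, adjusted p = 4.82e-08, edgeR) in IP and −0.79 ± 0.137 (adjusted p = 3.84e-07, edgeR) in input. *Mcm5*, a helicase subunit, had −0.41 in IP, *Uhrf1*, which guides maintenance of DNA methylation, −0.41 in IP and −0.63 in input, and the thymidine kinase gene *Tk1* −0.63 in input. Another list held 19 genes, mostly for other pocket proteins, E2Fs and subunits of DREAM, the complex that represses cell cycle genes in quiescence. These 19 include *Mybl2* and *Foxm1*, which are not subunits of that repressive complex and which fell in both fractions. Of the 19, 6 fell in each fraction and 1, *Lin52*, rose in IP (medians −0.01 and −0.02). The largest falls were those of *E2f8* and *E2f7*, E2F repressors that are themselves made in S phase, at −0.42 each in IP and −0.56 and −0.43 in input, and of *Mybl2* at −0.39 and −0.42.

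The p53 targets went up more often than down, though *Cdkn1a* was not called. Of 23 genes, 11 rose and 2 fell in IP (median 0.08), and 10 rose and 2 fell in input (median 0.06), and the 2 that fell in both fractions were *Trp53* itself and *Aen*. *Btg2*, an antiproliferative gene, changed by 0.18 in IP and 0.21 in input on the log2 scale, and *Gadd45a*, a stress sensor, 0.18 and 0.25. *Sesn2* had 0.15 in IP and *Trp53inp1* 0.20 in input.

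Of 17 Polycomb genes, whose products repress the *Cdkn2a* and *Cdkn2b* locus, 2 rose and 2 fell in IP, beside 11.9% and 9.48% of all genes. In input 2 rose and none fell, beside 7.21% and 7.78%. The genes called in IP were *Cbx2* (0.29) and *Ezh1* (0.18), which rose, and *Ezh2* (−0.12) and *Eed*, which fell. Those called in input were *Ezh1* (0.22) and *Bmi1* (0.18). The medians were 0.03 in IP and 0.02 in input. Of 15 genes of the ubiquitin ligases that degrade D cyclins and CIP/KIP inhibitors, 2 rose and 4 fell in IP, and 1 rose and 3 fell in input (medians −0.01 and −0.05). *Fbxo31*, an F-box protein that targets cyclin D1 after DNA damage, rose in both fractions, at 0.23 in IP and 0.12 in input, and *Ambra1*, which targets D cyclins in general, in IP. *Dtl* (−0.38 in IP, −0.37 in input) and *Cks1b* (−0.29 and −0.26), which serve the ligases for p21 and p27, fell together with *Rbx1*, and *Skp2* fell in IP.

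**Figure D4:**
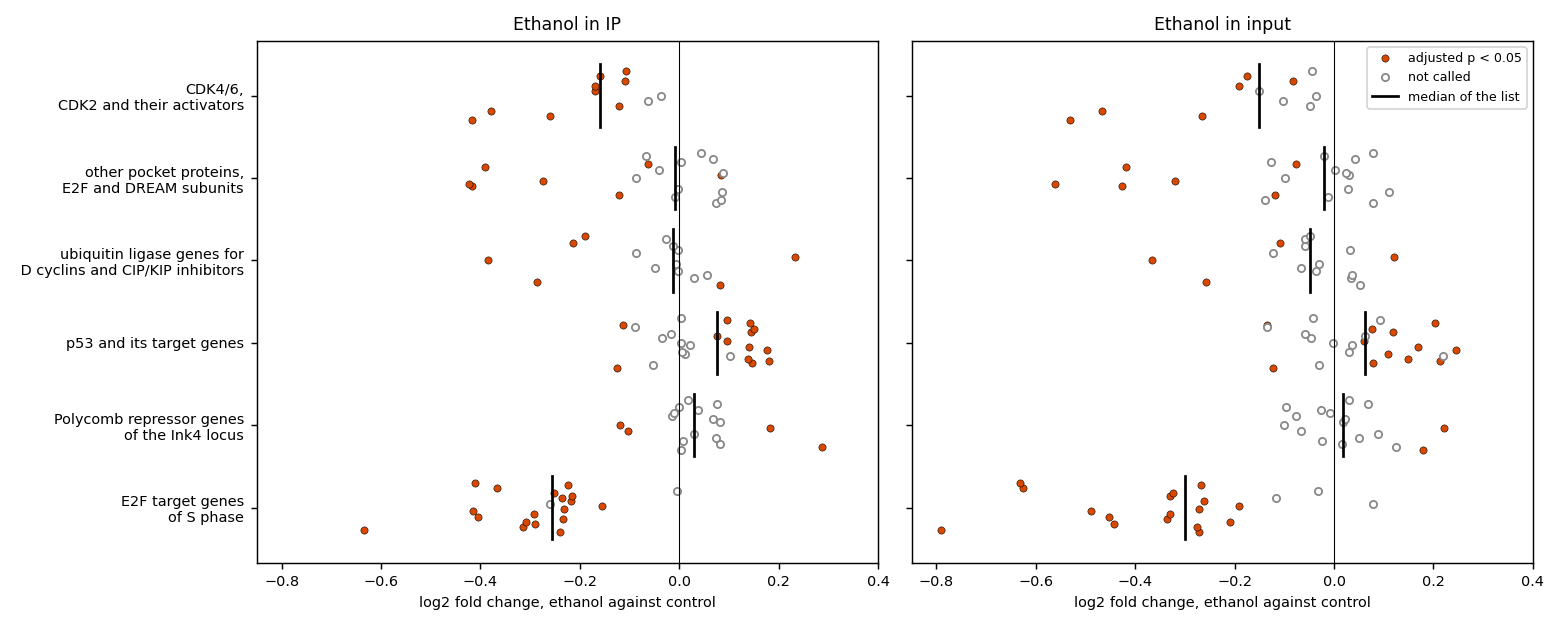
Log2 fold change of ethanol against control for each gene of the 6 lists, in IP on the left (6 and 6 libraries) and input on the right (3 and 3 libraries). Filled points have an adjusted p below 0.05, open points do not, and black bars are medians. The S phase genes and the CDK4/6 and CDK2 genes lie mostly left of 0 (medians −0.26 and −0.16 in IP) and the p53 genes lie mostly right of it (median 0.08 in IP).

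Between the fractions the lists were mixed. In IP 9 S phase genes were higher and 4 lower, 6 p53 genes higher and 12 lower, 2 pocket protein and E2F genes (*E2f6* and *Tfdp2*) higher and 11 lower, 7 Polycomb genes higher and 6 lower, and 7 ubiquitin ligase genes higher and 5 lower. *Pcgf2*, a Polycomb subunit, had a log2 fold change of −0.80 and *Cbx6* 0.59, *Zmat3*, a p53 target, 0.73, and *E2f4*, the main E2F of quiescent cells, −0.40.

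The gene most like a member over the 18 libraries, out of 11056 genes that averaged 5 CPM or more, was found by Pearson's r of log2 CPM. These libraries share dishes, treatments and fractions, so r is a description only. *Ccnd2* was followed most closely by *Acot11* (r = 0.997), *Cdkn2b* by *Slc25a18* (r = 0.988) and *Ccnd1* by *Patj* (r = 0.985). For *Ccnd3* it was *Pfn1* (r = 0.956), for *Cdkn1a* *Smarcd3* (r = 0.946), for *Cdkn2c* *Arhgap23* (r = 0.886) and for *Rb1* *Rb1cc1* (r = 0.877). *Cdkn1b* (*Ccdc120*, r = 0.843) and *Cdkn2d* (*Lins1*, r = 0.784) had the loosest match. *Slc25a18*, a mitochondrial glutamate carrier, showed the pattern of *Cdkn2b* in its means, with 59.0 CPM in control and 73.1 CPM in ethanol dishes of the input, and 102 CPM and 126 CPM in the same order in IP.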

How the data were processed

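RNA of 18 libraries from cultured mouse astrocytes was sequenced as stranded total RNA. The authors used Trimmomatic for trimming and STAR for alignment to GRCm38, and deposited raw counts of read pairs per gene, unstranded in one table and by strand for each library. The deposited counts were neither normalized nor pooled, and the table and the unstranded counts for each library were identical (0 differences). STAR left out pairs mapped to several places (3.6% on average) and pairs on overlapping genes (5.5%), so genes that overlap others are undercounted. The members and gene lists were chosen with earlier results of these data known.

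Tests across genes used edgeR 4.0.16 in R 4.3.3 (quasi-likelihood, robust, TMM scaling, at least 10 counts over the 18 libraries, Benjamini-Hochberg adjustment, threshold 0.05). Ethanol was tested within each fraction, the fractions over all 18 libraries with treatment as a term, and the interaction in the same libraries. The fits were tested on simulated counts. CPM used TMM-scaled library sizes, and RPKM used the gene-strand count and the union of GENCODE M21 exons. DESeq2 1.42.0 and other scalings, filters, strand counts, a replicate block and leaving out each library were tried as alternatives. Symbols turned into dates (27) were restored by gene ID. Closest libraries of one group (IP control replicates 5 and 6) differed by more than counting alone would give (chi-square of 4.06 per degree of freedom). IP and input of one dish share a number in the labels and a lysate, so that the number pairs them. Same-numbered libraries had correlations of their deviations from 0.0340 to 0.206, with a mean of 0.0715 in control and 0.133 in ethanol dishes. Differently numbered libraries overlapped with these, at −0.0857 to 0.0921 (mean −0.0143) in control and −0.177 to 0.134 (mean −0.0267) in ethanol dishes. Genes named from each list had, among called genes averaging 1 CPM or more, the 3 largest changes in a comparison, and other genes behind counts of 5 or fewer were named after their values were seen. The gene most like *Cdkn2a* is not reported here.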

Additional observations from a re-analysis of the deposited data

Results flagged for a closer look

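In 3 of the 20 groups of 6 IP libraries tested (10 members, 2 treatments), 1 library stood apart from the rest by Dixon's criterion, which chance meets in about 1 group in 20. *Cdkn2c* was lowest in IP control replicate 1, at 18.1 CPM, against 19.7 to 20.3 CPM in the other controls. *Ccnd2* was highest in IP ethanol replicate 5, at 4113 CPM, against 3677 to 3803 CPM. *Rb1* was highest in IP control replicate 5, at 72.3 CPM, against 65.3 to 67.5 CPM. Without that library the member was still called in IP and its log2 fold change was further from 0, at −0.15 for *Cdkn2c*, −0.10 for *Ccnd2* and 0.14 for *Rb1*. Each of these libraries lay towards the other treatment, so the larger change follows from leaving it out and is no support for the call.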

How the results depend on the processing

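No member's call turned direction in any refit for ethanol or for the fractions. Counted over every member and every refit, there were 220 log2 fold changes for ethanol in IP, 140 in input and 270 between the fractions. With IP replicates 4 to 6 alone, 5 members were called with ethanol in place of 8, *Cdkn1b* (0.03), *Cdkn2c* (−0.14) and *Ccnd2* (−0.06) being lost. With 1 library left out at a time, 6 to 8 members were called in IP and 4 to 7 in input, the lowest without input control replicate 5. Control and ethanol dishes have nothing but the number in common (correlations of same-numbered libraries −0.149 to 0.399 in IP), and with this number as a replicate block 9 members were called in IP and 8 in input, *Cdkn1a* being added in each. The dish block between the fractions left 6 members called and the interaction 0, and changed no other call. Total counts in place of TMM gave 9 members between the fractions. The DESeq2 Wald test gave 9 in IP and 7 in input. *Cdkn1b* in IP was also not called with DESeq2's size factors, no filter on low counts or gene-strand counts (0.06 to 0.07). With GC and length trends removed, *Cdkn1b* in IP (0.06) and *Cdkn2a* in input (−0.04) were no longer called. With IP replicates 1 to 3 alone, 6 members were called, *Cdkn2c* (−0.12) and *Rb1* (0.09) being lost. *Cdkn2c* and *Cdkn2d* have the fewest reads and the widest intervals.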
